A study of Rattus norvegicus with 16 samples.

Results

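10 genes that restrain muscle growth or carry the glucocorticoid signal were followed through injury and denervation of a rat shoulder muscle. They are Foxo1, Foxo3, Foxo4, Klf15, Nr3c1, Fkbp5, Ddit4, Eif4ebp1, Cebpb and Cebpd, chosen by symbol, and all 10 are among the 17147 genes of the table. The choice was made with earlier results of these data known, so their counts and medians beside those of all genes are only descriptive. Messenger RNA of the supraspinatus, a muscle of the rotator cuff, was sequenced in 16 libraries from Sprague Dawley rats, 4 each at 0, 10, 30 and 60 days. The 0-day rats were unoperated, and all the others had a tear through the whole supraspinatus in both shoulders, combined with suprascapular neurectomy, which removes the muscle's nerve supply. Tear and neurectomy were always combined, so their contributions cannot be told apart. None of the groups is labelled as sham-operated. The labels give neither the age and sex of the rats nor which libraries, if any, came from 1 rat, so p-values measure the spread between libraries.

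FoxO proteins are transcription factors that the kinase AKT holds in the cytoplasm while insulin-like signals are strong. When these signals fall they enter the nucleus and switch on genes of protein breakdown such as Fbxo32 and Trim63, which encode ubiquitin ligases. The glucocorticoid receptor, encoded by Nr3c1, is a hormone-activated transcription factor that adds to muscle wasting through targets such as Klf15, Fkbp5, Ddit4 and Cebpd, several of which slow protein synthesis or raise amino acid breakdown.

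Library totals ran from 17.2 to 39.9 M (mega) fragments, and the 60-day libraries, at 17.2 to 22.4 M, lay below all others. Every one of the 10 genes had at least 69 fragments in each library and passed the filter on low counts. Levels are given as CPM, fragments scaled to library size with TMM factors, which sets the bulk of the genes equal between libraries. Transcripts of 5 skeletal muscle fibre markers, among them Acta1 and Ckm, summed to 174311 to 193133 CPM in unoperated muscle, 54502 to 57065 after 10 days, 82063 to 118357 after 30 days and 98482 to 115937 after 60 days. The 5 did not move alike. Against 0 days, Mb was the 1 called higher at 10, 30 and 60 days, while 4, 4 and 3 were called lower (edgeR, adjusted p under 0.05). Shares of all genes are given below. Macrophage markers (7 genes) summed to 18.6 to 35.0 CPM in unoperated muscle and 62.2 to 87.4, 92.2 to 113 and 69.1 to 137 at 10, 30 and 60 days. Fibroblast markers (5 genes) summed to 429 to 929, 820.5 to 2406, 1331 to 2145 and 1221 to 2600 CPM, in the same order. Each marker gene found in the table had fragments in at least 1 library. In whole muscle, fewer cells of a type and less RNA per cell cannot be told apart, and the part of cell composition in the results below was not tested. Scaling by library totals in place of TMM moved the median over all genes, on the log2 scale, by 0.66, 0.49 and 0.41 at 10, 30 and 60 days against 0 days, so every change is relative to most other genes, and the value with library totals is given wherever it ends a call or turns a direction.

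Promoter sequences from RefSeq (assembly GRCr8) were found for 7 of the 10 genes. The 250 bases before the start are shown for Foxo4, whose transcript had the largest F statistic of the 10 over the 4 groups, and for the glucocorticoid-linked Klf15, Fkbp5 and Ddit4, which all rose between 30 and 60 days. Capitals mark matches, on either strand, to the E-box CACGTG, the GC box GGGCGG, the CCAAT box CCAAT or the CACCC box CCACCC.
Foxo4, chrX:70425313-70425562, plus strand: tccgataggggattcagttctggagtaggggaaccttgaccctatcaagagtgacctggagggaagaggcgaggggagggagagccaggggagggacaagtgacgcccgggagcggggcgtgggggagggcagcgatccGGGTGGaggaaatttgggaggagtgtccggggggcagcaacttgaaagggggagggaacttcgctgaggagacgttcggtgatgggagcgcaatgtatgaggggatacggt
Klf15, chr4:124522765-124523014, plus strand: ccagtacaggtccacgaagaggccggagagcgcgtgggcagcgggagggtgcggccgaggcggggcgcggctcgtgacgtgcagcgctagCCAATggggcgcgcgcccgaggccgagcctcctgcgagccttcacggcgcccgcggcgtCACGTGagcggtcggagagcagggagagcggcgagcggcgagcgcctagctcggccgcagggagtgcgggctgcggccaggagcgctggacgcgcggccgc
Fkbp5, chr20:6543556-6543805, minus strand: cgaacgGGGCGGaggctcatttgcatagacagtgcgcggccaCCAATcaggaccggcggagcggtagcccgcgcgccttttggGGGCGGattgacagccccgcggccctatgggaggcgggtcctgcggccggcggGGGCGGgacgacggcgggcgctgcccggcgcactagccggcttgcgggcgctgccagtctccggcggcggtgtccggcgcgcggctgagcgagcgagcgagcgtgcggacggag
Ddit4, chr20:28437038-28437287, minus strand: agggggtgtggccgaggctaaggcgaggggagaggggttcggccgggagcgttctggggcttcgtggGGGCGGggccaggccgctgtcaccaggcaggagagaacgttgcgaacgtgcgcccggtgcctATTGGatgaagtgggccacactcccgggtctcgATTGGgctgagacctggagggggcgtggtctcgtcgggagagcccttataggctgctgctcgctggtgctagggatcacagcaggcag

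The Fkbp5 window held 3 GC boxes and 1 CCAAT box, and the Ddit4 window held 1 GC box and a pair of CCAAT boxes in the reverse orientation. In Klf15 the E-box began 101 bases before the start and the CCAAT box 160 bases before it. The Foxo4 window held 1 CACCC box. Among all 33469 promoter windows of this length, 5.59% held an E-box, 30.5% a GC box, 34.0% a CCAAT box and 26.1% a CACCC box. A FoxO element, TGTTTAC, was in 3.21% of all windows, a glucocorticoid response element, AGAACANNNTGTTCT, in 0.0120% and a C/EBP palindrome, TTGCGCAA, in 0.140%, and none of these letters was in the windows of the 7 genes. The motifs do not overlap one another in the 4 windows shown.

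**Figure D1:**
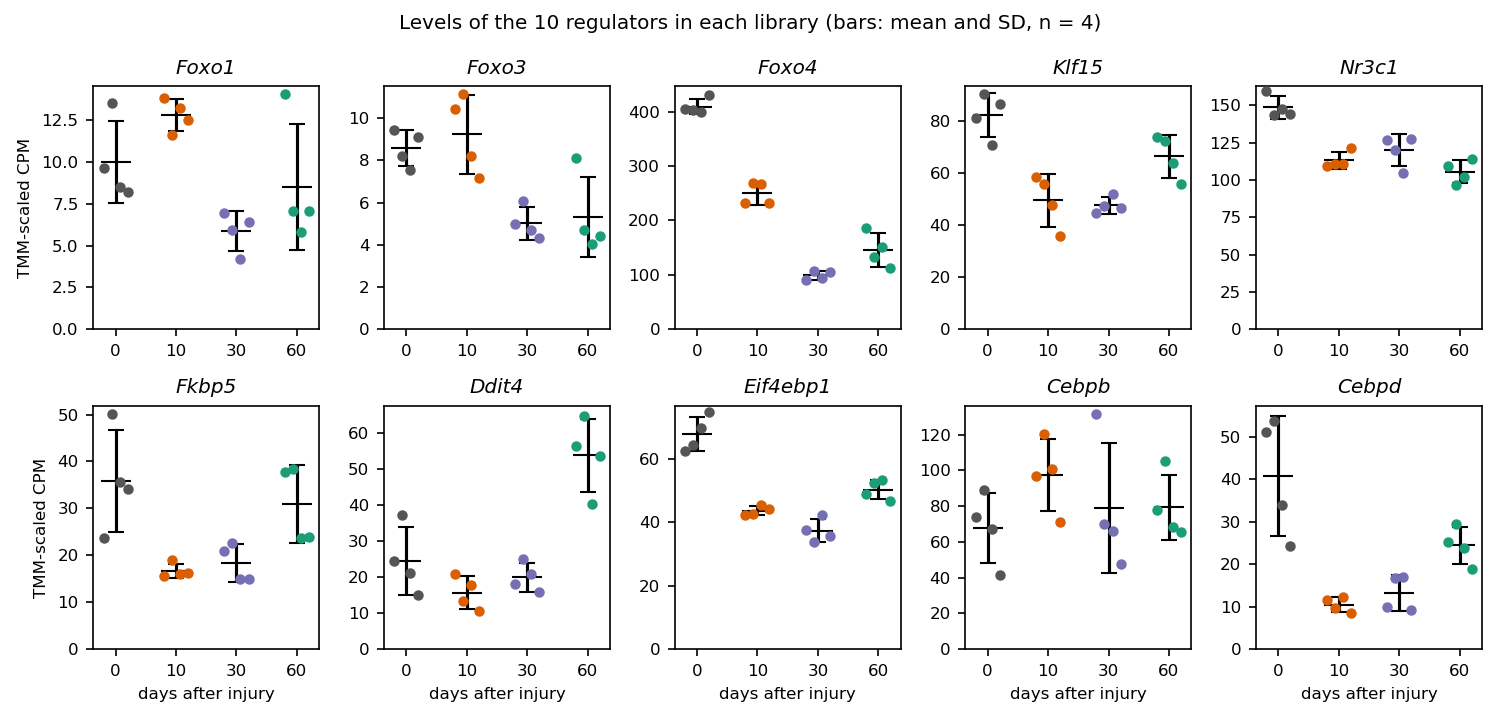
TMM-scaled CPM (vertical axis, from 0) of each of the 10 genes in every library by days after injury (horizontal axis), with bars for the mean and SD of 4 libraries. Foxo4 was lowest after 30 days, at 89.7 to 107 CPM, Ddit4 was highest after 60 days, at 40.3 to 64.9 CPM, and Cebpb overlapped between all groups.

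Over the 4 groups together, 9 of the 10 genes changed (edgeR F test of the 3 differences from 0 days, adjusted p under 0.05), against 84.7% of all genes tested. Cebpb did not pass (adjusted p 0.363). Against 0 days, 7 of the 10 genes were lower after 10 days and 0 were higher, where 62.7% of all genes changed, 29.4% lower and 33.3% higher. At 30 days 8 were lower and 0 higher (64.6% of all genes changed, 30.9% lower and 33.7% higher), and after 60 days 5 were lower and 1, Ddit4, was higher (59.0% changed, 29.1% lower, 29.9% higher). The median log2 fold change of the 10 was -0.64, -0.78 and -0.37, against 0.06, 0.05 and 0.04 for all genes. With library totals the split became 4 higher and 1 lower after 10 days, 1 higher and 4 lower after 30 days and 1 higher and 1 lower after 60 days. Under that scaling 70.05%, 63.1% and 57.8% of all genes were higher and 10.1%, 11.9% and 12.1% lower. The libraries did not overlap those of 0 days for 6 genes after 10 days (59.0% of all genes), 8 after 30 days (60.2%) and 4 after 60 days (50.0%). The 3 comparisons share the same 0-day libraries.

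Between the operated groups, calls went down from 10 to 30 days and up from 30 to 60 days, mostly in different genes. Only Foxo4 and Eif4ebp1 were called in both intervals. From 10 to 30 days 4 of the 10 genes fell and 0 rose (47.3% of all genes changed, 24.3% lower and 23.0% higher), and these were the 3 FoxO genes and Eif4ebp1. From 30 to 60 days 6 rose and 0 fell (22.6% of all genes changed, 10.3% higher and 12.4% lower): Foxo4, Klf15, Fkbp5, Ddit4, Eif4ebp1 and Cebpd. With library totals the same 6 were called higher and Nr3c1 was called lower (log2 fold change -0.27, edgeR adjusted p 0.0446), where 6.42% of all genes were higher and 18.0% lower. At 60 against 10 days 5 were higher and 3 lower (61.1% changed, 29.1% higher, 31.9% lower), and with library totals 3 were higher and 4 lower, where 17.7% of all genes were higher and 45.5% lower. The 2 groups did not overlap for 4 genes between 10 and 30 days (43.8% of all genes), 6 between 30 and 60 days (20.1%) and 5 between 10 and 60 days (51.2%).

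**Figure D2:**
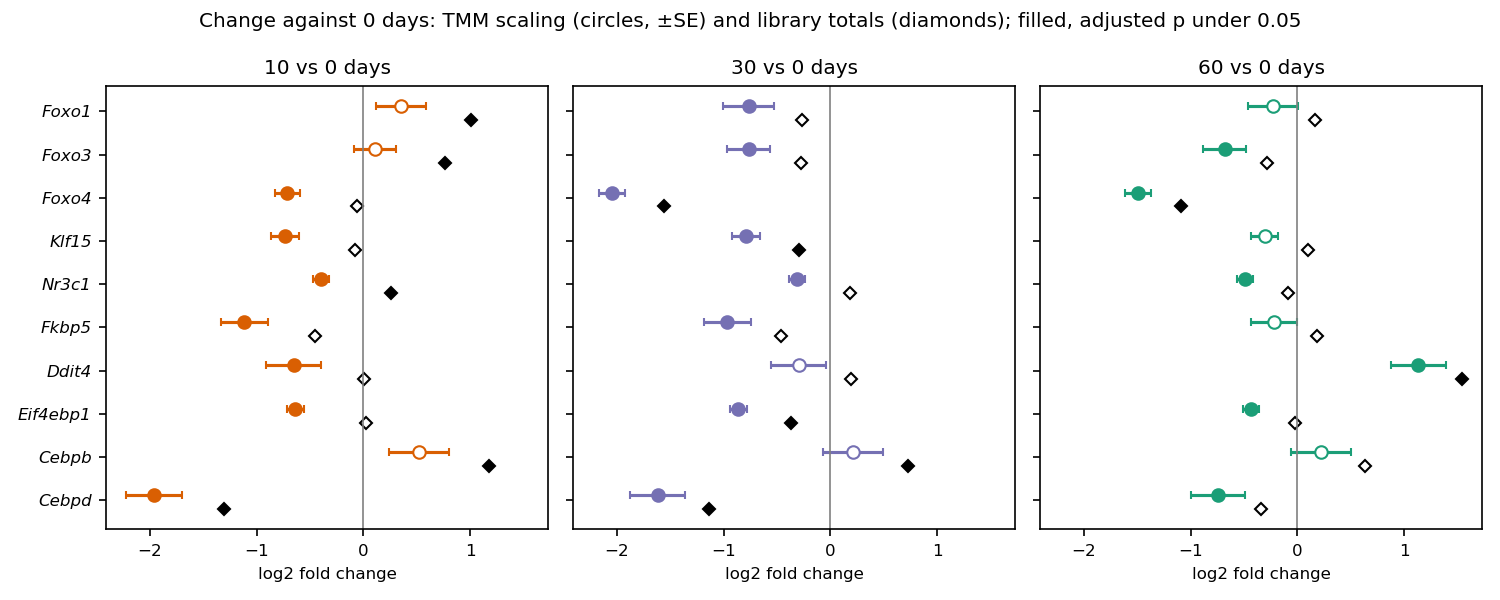
Log2 fold change against 0 days (horizontal axes) for each gene at 10, 30 and 60 days, with TMM scaling (circles, bars ± SE) and with library totals (black diamonds); filled symbols have an adjusted p under 0.05. Library totals moved every gene to the right, and Foxo4 at 30 and 60 days, Cebpd at 10 and 30 days, Klf15 and Eif4ebp1 after 30 days and Ddit4 after 60 days were called in the same direction by both scalings.

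Foxo4, a FoxO factor abundant in muscle, had the largest log2 falls of the 3 FoxO transcripts at 30 and 60 days. Its 4 libraries held 404, 404, 399 and 429.9 CPM in unoperated muscle, 231, 269, 266 and 231 after 10 days, 89.7, 107, 93.5 and 106 after 30 days, and 186, 132, 152 and 112 after 60 days. No library of any operated group reached the 0-day range, and the 30-day and 60-day groups did not overlap either. Against 0 days edgeR gave a log2 difference of -0.71 ± 0.12 (SE; adjusted p 5.79e-05) after 10 days, -2.05 ± 0.12 (1.34e-09) after 30 days and -1.49 ± 0.12 (5.65e-08) after 60 days, that is, 4.13-fold lower after 30 days. From 10 to 30 days it fell by 1.33 ± 0.12 on the log2 scale (edgeR adjusted p 4.63e-07), and from 30 to 60 days it rose by 0.56 ± 0.12 (0.00339). With library totals the values at 30 and 60 days were -1.55 and -1.09, both called, while the 10-day value of -0.06 was not called (edgeR adjusted p 0.633).

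Foxo1 and Foxo3, the FoxO factors most studied in muscle wasting, were lower after 30 days and not called after 10 days. Foxo1 stood at 9.67, 13.5, 8.52 and 8.24 CPM in unoperated muscle, 13.8, 11.6, 13.2 and 12.5 after 10 days, 6.94, 5.96, 4.20 and 6.43 after 30 days, and 14.1, 7.07, 5.85 and 7.07 after 60 days. All 30-day libraries lay below every 0-day and 10-day library, and replicate 1 after 60 days lay apart above its group's others. The 10-day value was not called (log2 0.35 ± 0.23, SE; edgeR adjusted p 0.195), the 30-day value was lower than in unoperated muscle (-0.77 ± 0.24, 0.0102) and the 60-day value was not called (-0.23 ± 0.24, 0.421). From 10 to 30 days Foxo1 fell by 1.12 ± 0.24 on the log2 scale (edgeR adjusted p 0.00102). At 60 against 10 days it was -0.58 ± 0.23 (0.0407), a call lost with RLE factors (0.0517), with upper-quartile factors (0.0646), in the fit of these 2 groups (0.0643) and in 7 of 16 fits that each left out 1 library (0-day replicate 1, 10-day replicates 1, 3 and 4, and 60-day replicates 2, 3 and 4; adjusted p up to 0.126). With library totals Foxo1 was higher after 10 days (1.01, edgeR adjusted p 0.000831), and its 30-day value was no longer called (-0.26, 0.327). Without the high 60-day library, replicate 1, the 60-day value against 0 days was -0.59 and was called (edgeR adjusted p 0.0112).

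Foxo3 held 9.45, 8.22, 7.54 and 9.10 CPM in unoperated muscle, 10.4, 11.1, 8.21 and 7.16 after 10 days, 5.00, 6.08, 4.68 and 4.30 after 30 days, and 8.12, 4.71, 4.03 and 4.40 after 60 days. The 10-day libraries spanned the 0-day range, all 30-day libraries lay below both, and replicate 1 was again the high library after 60 days. Foxo3 was lower than in unoperated muscle by log2 -0.76 ± 0.20 (SE; edgeR adjusted p 0.00319) after 30 days and -0.68 ± 0.20 (0.00889) after 60 days, and its 10-day value of 0.11 ± 0.20 was not called (0.641). It fell by 0.87 ± 0.20 from 10 to 30 days (edgeR adjusted p 0.00170). With library totals Foxo3 was higher after 10 days (0.76, edgeR adjusted p 0.00140), and its values at 30 and 60 days, -0.27 and -0.28, were not called.

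Ratios of 2 genes within a library do not depend on how libraries are scaled. The log2 ratio of Foxo4 to Foxo3 fragments averaged 5.58 ± 0.13 (SD, n = 4) in unoperated muscle, 4.77 ± 0.29 after 10 days, 4.31 ± 0.22 after 30 days and 4.81 ± 0.31 after 60 days. It was lower than in unoperated muscle by 0.81, 1.27 and 0.77, with no overlap at any of the 3 times (two-sided exact permutation p 0.0286 each, the smallest possible for 4 against 4; adjusted p 0.0429 over 9 ratio tests). The unadjusted exact p at 60 days was 0.0571 when any 1 of the 4 unoperated libraries was left out. The ratio is not a comparison of their levels, since gene length was not corrected for. The log2 ratio of Foxo1 to Foxo3 differed from 0 days by 0.29, 0.021 and 0.45 (exact permutation p 0.314, 1 and 0.114; adjusted p 0.354, 1 and 0.147), within the spread between libraries. Without 0-day replicate 2 the 60-day difference was 0.63 (unadjusted exact permutation p 0.0286).

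**Figure D3:**
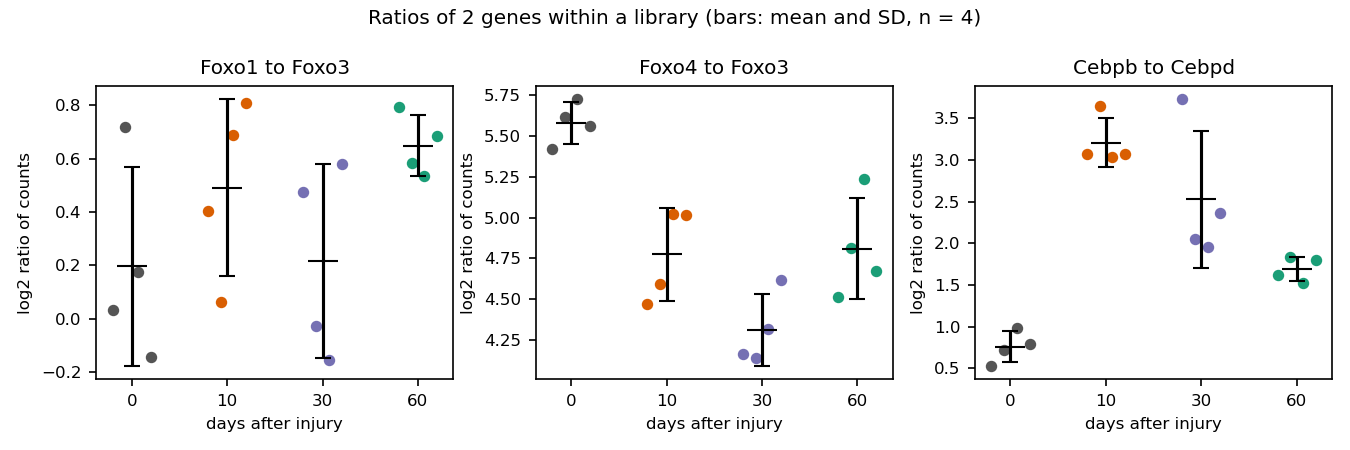
Log2 ratio of fragment counts of 2 genes within each library (vertical axes, which do not start at 0) by days after injury, with bars for the mean and SD of 4 libraries. The ratios of Foxo4 to Foxo3 lay between 5.42 and 5.72 in unoperated muscle and at most at 5.24 later, and those of Cebpb to Cebpd lay between 0.53 and 0.98 in unoperated muscle and at least at 1.52 later.

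Nr3c1, the glucocorticoid receptor, was lower in every operated group. It held 159.8, 144, 147 and 144 CPM in unoperated muscle, 109.7, 111, 110.5 and 122 after 10 days, 127, 120.3, 105 and 127 after 30 days, and 109.4, 96.4, 102 and 114 after 60 days. Every operated library lay below every 0-day library, while the operated groups overlapped one another. Against 0 days edgeR gave it log2 differences of -0.39 ± 0.075 (SE; adjusted p 0.000227), -0.31 ± 0.075 (0.00173) and -0.49 ± 0.075 (3.91e-05) at 10, 30 and 60 days. Scaled by library totals, its direction turned after 10 days (0.26, called higher, edgeR adjusted p 0.0168) and 30 days (0.19, not called, 0.0810), and the 60-day value was not called (-0.08, 0.433). From 30 to 60 days Nr3c1 was not called (-0.18, edgeR adjusted p 0.0905), but it was called with library totals (-0.27, 0.0446) and without 30-day replicate 3 (-0.24, 0.0246).

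Fkbp5 encodes a partner of the heat shock protein HSP90 that lowers the receptor's affinity for hormone and is itself switched on by the receptor. Its libraries held 23.6, 50.1, 35.7 and 34.2 CPM in unoperated muscle, 15.5, 18.9, 15.9 and 16.2 after 10 days, 21.0, 22.6, 14.9 and 15.0 after 30 days, and 37.7, 38.4, 23.7 and 23.9 after 60 days. The 10-day and 30-day groups lay below both the 0-day and the 60-day group, which overlapped each other. Fkbp5 was lower by log2 -1.11 ± 0.22 (SE; edgeR adjusted p 0.000356) after 10 days and -0.96 ± 0.22 (0.00116) after 30 days, and was not called after 60 days (-0.22 ± 0.22, 0.397). It rose from 30 to 60 days by 0.75 ± 0.22 (edgeR adjusted p 0.0228); this call was lost in 4 of 16 fits that left out 1 library each (30-day replicates 3 and 4, 60-day replicates 1 and 2; adjusted p up to 0.0760), and with the title letter as a covariate (0.55, 0.0591). Library totals put the 10-day and 30-day values at -0.45 and -0.46, not called (edgeR adjusted p 0.0619 and 0.0608), the 60-day value turned to 0.19 (0.448), and the rise from 30 to 60 days was 0.65 (0.0383).

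Klf15, a zinc finger factor that raises the breakdown of branched-chain amino acids in muscle, was lower at 10 and 30 days and rose thereafter. It held 81.4, 90.4, 70.8 and 86.7 CPM in unoperated muscle, 58.4, 56.1, 47.9 and 35.9 after 10 days, 44.6, 47.6, 52.1 and 46.6 after 30 days, and 73.8, 72.5, 63.9 and 56.0 after 60 days. All libraries at 10 and 30 days lay below the 0-day range, and the 60-day libraries lay above all 30-day ones. The log2 fold change was -0.73 ± 0.13 (SE; edgeR adjusted p 0.000122) after 10 days, -0.79 ± 0.13 (6.60e-05) after 30 days and -0.31 ± 0.13 (0.0515, not called) after 60 days, and the rise from 30 to 60 days was 0.48 ± 0.13 (0.0148). The 60-day value was called with DESeq2 (adjusted p 0.0469), RLE factors (0.0498), no filter for low counts (0.0432), the replicate block (0.0342) and the fit of the 2 groups alone (0.0430), and without 0-day replicate 3, 10-day replicate 1, 2 or 4, or 60-day replicate 1 or 2 (0.0155 to 0.0488). With library totals it turned to 0.10, the 10-day call was lost (-0.08, edgeR adjusted p 0.569) and the 30-day call held (-0.30, 0.0344).

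Ddit4, also known as REDD1, restrains the growth kinase complex mTORC1 through TSC1 and TSC2. Its libraries held 24.5, 37.3, 21.3 and 14.9 CPM in unoperated muscle, 21.0, 13.4, 17.7 and 10.5 after 10 days, 18.0, 25.0, 20.8 and 15.9 after 30 days, and 56.6, 64.9, 40.3 and 53.7 after 60 days. All 60-day libraries lay above every other library, and the other 3 groups overlapped. At 60 days Ddit4 was higher than in unoperated muscle by log2 1.13 ± 0.26 (SE; edgeR adjusted p 0.00142), or 2.19-fold, than after 30 days by 1.43 ± 0.26 (0.00133) and than after 10 days by 1.78 ± 0.26 (2.58e-05). These 3 calls held with library totals (1.54, 1.35 and 1.53). The 10-day value against 0 days, -0.65 ± 0.26 (edgeR adjusted p 0.0372), was 0.01 with library totals, was not called with upper-quartile factors (0.0515), limma-voom (0.0505), no filter for low counts (0.0551) or the 2 groups alone (0.0902), and was lost in 5 of 16 fits that left out 1 library each (0-day replicates 1 and 2, 10-day replicates 2 and 4, 60-day replicate 1). Without 0-day replicate 2, the highest of its group, it was -0.37 (0.199). Beside the 60-day rise, adipocyte markers (4 genes) summed to 49.6 to 119 CPM at 60 days against 7.42 to 41.5 in unoperated muscle, 8.73 to 24.6 after 10 days and 11.5 to 27.8 after 30 days, and Schwann cell markers (4 genes) to 81.5 to 184 against 41.9 to 69.3, 17.2 to 33.9 and 40.4 to 69.4; their part in the rise was not tested.

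Eif4ebp1 encodes 4E-BP1, which binds the cap-binding factor eIF4E and blocks translation until mTORC1 phosphorylates it. Its libraries held 62.5, 64.4, 69.5 and 74.6 CPM in unoperated muscle, 42.4, 42.5, 45.4 and 44.0 after 10 days, 37.5, 33.7, 42.2 and 35.7 after 30 days, and 48.8, 52.2, 53.3 and 46.6 after 60 days. None of the 4 groups overlapped another. Compared with 0 days, edgeR gave log2 differences of -0.64 ± 0.077 (SE; adjusted p 2.03e-06), -0.86 ± 0.077 (9.30e-08) and -0.43 ± 0.077 (0.000171), and from 30 to 60 days Eif4ebp1 rose by 0.43 ± 0.078 (0.00113). The fall from 10 to 30 days (-0.23 ± 0.077, edgeR adjusted p 0.0233) was lost with upper-quartile factors (-0.16, 0.120), the title letter (-0.21, 0.0588) and in 3 of 16 fits that left out 1 library each (10-day replicate 3, 30-day replicates 2 and 4; adjusted p up to 0.0829). The value at 60 against 10 days (0.20, edgeR adjusted p 0.0304) was lost without a filter for low counts (0.0599) and without 10-day replicate 1 or 2 or 60-day replicate 2 or 3 (up to 0.0879). With library totals the values against 0 days were 0.02, -0.37 and -0.03, of which the 30-day value was called (edgeR adjusted p 0.000393).

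Cebpb and Cebpd encode related leucine zipper factors, both active in inflammation and fat cell formation. Cebpd held 51.2, 53.8, 34.0 and 24.2 CPM in unoperated muscle, 11.5, 9.59, 12.3 and 8.45 after 10 days, 9.92, 16.8, 17.0 and 9.29 after 30 days, and 25.3, 29.6, 23.9 and 18.9 after 60 days. The 10-day and 30-day groups lay below all 0-day and all 60-day libraries. Cebpd was lower by log2 -1.96 ± 0.26 (SE; edgeR adjusted p 7.96e-06), or 3.90-fold, after 10 days, by -1.62 ± 0.26 (5.29e-05) after 30 days and by -0.74 ± 0.25 (0.0188) after 60 days, and it rose from 30 to 60 days by 0.88 ± 0.26 (0.0222). The 60-day call was lost with library totals (-0.34, edgeR adjusted p 0.216) and without 0-day replicate 1 (0.0749), 0-day replicate 2 (0.0841) or 60-day replicate 4 (0.0756), and the rise from 30 to 60 days was lost without 30-day replicate 1 or 4 or 60-day replicate 2 (adjusted p up to 0.0772).

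Cebpb held 73.9, 88.8, 67.0 and 41.7 CPM in unoperated muscle, 96.8, 120.4, 101 and 71.2 after 10 days, 132, 69.8, 66.0 and 47.8 after 30 days, and 77.9, 105, 68.5 and 65.6 after 60 days. Every group overlapped every other, and replicate 1 after 30 days was the highest library of all. In edgeR its differences from 0 days were 0.52 ± 0.28 (SE; adjusted p 0.118), 0.22 ± 0.28 (0.516) and 0.22 ± 0.28 (0.509), none of them called. With library totals Cebpb was called higher after 10 days (1.18, edgeR adjusted p 0.00215) and 30 days (0.73, 0.0377), and with the replicate block after 10 days (0.55, 0.0229). Without the high 30-day library the 30-day value was -0.15 and the value against 10 days was -0.67 and was called (edgeR adjusted p 0.0369). The log2 ratio of Cebpb to Cebpd fragments rose from 0.75 ± 0.19 (SD, n = 4) in unoperated muscle to 3.21 ± 0.30 after 10 days, 2.53 ± 0.82 after 30 days and 1.69 ± 0.15 after 60 days, with no overlap with 0 days at any time (exact permutation p 0.0286 each, adjusted p 0.0429).

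Among 16 other targets of the glucocorticoid receptor that were tested, 4 rose and 9 fell after 10 days, 6 rose and 8 fell after 30 days, and 6 rose and 5 fell after 60 days (edgeR, adjusted p under 0.05), with median log2 fold changes of -0.60, -0.52 and -0.07. These lists are read beside the medians of all genes given above, 0.06, 0.05 and 0.04, and beside the 33.3%, 33.7% and 29.9% of all genes that were higher and the 29.4%, 30.9% and 29.1% that were lower. The phosphatase gene Dusp1 fell by 2.66 ± 0.37 (SE) on the log2 scale after 10 days, from a mean of 166 to 26.2 CPM, and Arrdc2, an arrestin-domain gene, fell by 2.86 ± 0.26 after 10 days and by 1.03 ± 0.25 after 60 days. Lpin1, which makes diacylglycerol, was at -2.77 ± 0.16 after 60 days. The metallothionein gene Mt1a (5.18 ± 0.46 after 10 days, 2.28 ± 0.48 after 60 days) and the cell cycle inhibitor Cdkn1a (5.18 ± 0.31 and 4.72 ± 0.31) rose. Library totals gave splits of 7 higher and 4 lower, 7 and 6, and 6 and 3. These, and the splits with library totals of the lists that follow, stand beside 70.05%, 63.1% and 57.8% of all genes higher and 10.1%, 11.9% and 12.1% lower under that scaling.

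The receptor's own machinery (13 genes tested) had 7 higher and 4 lower after 10 days, 3 and 5 after 30 days, and 4 and 6 after 60 days. Hsd11b2, whose enzyme inactivates glucocorticoid, averaged 0.333 CPM ± 0.146 (SD, n = 4; as few as 3 fragments) in unoperated muscle, 25.8 ± 6.32 after 10 days, 3.20 ± 0.337 after 30 days and 1.37 ± 0.870 after 60 days. Its log2 rise in edgeR was 6.27 ± 0.36 (SE; adjusted p 1.14e-09) after 10 days and 2.07 ± 0.44 (0.000825) after 60 days. Hsd11b1, whose enzyme regenerates active glucocorticoid, was higher after 60 days (1.11 ± 0.20, edgeR adjusted p 0.000184), from 8.67 to 18.7 CPM. Fkbp4, the HSP90 partner that favours the receptor's move to the nucleus, was lower after 10 days (-1.47 ± 0.088) and 60 days (-1.18 ± 0.088). H6pd, which feeds NADPH to the Hsd11b1 enzyme, was higher after 10 days (1.16), and the receptor coactivator gene Ncoa1 was lower at both times (-0.61 and -0.76), though with library totals its 10-day value turned to 0.05. The splits with library totals were 11 and 1 (70.05% and 10.1% of all genes), 9 and 2 (63.1% and 11.9%), and 6 and 2 (57.8% and 12.1%), and Hsd11b2, Hsd11b1 and Fkbp4 kept their directions (6.93, 1.52 after 60 days and -0.81 after 10 days).

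FoxO targets (20 genes tested) had 9 higher and 7 lower after 10 days, 4 and 11 after 30 days, and 4 and 9 after 60 days, with medians of 0.06, -0.26 and -0.30. The growth arrest gene Gadd45a averaged 24.3 CPM ± 5.01 (SD, n = 4) in unoperated muscle and 931 ± 211 after 10 days, and was higher at both 10 days (log2 5.26) and 60 days (2.68). The lysosomal protease gene Ctsl1 was higher after 10 days (3.24), while Pdk4, which holds back glucose oxidation (-1.91), and the stress sensor Sesn1 (-1.40) were lower. Fbxo32 rose after 10 days, from a mean of 50.7 to 175 CPM (log2 1.79 ± 0.23, SE; edgeR adjusted p 7.24e-06), and was lower after 30 days (-1.48) and 60 days (-1.51). Trim63, named here after its values were seen, rose from 369.9 to 663 CPM after 10 days (0.84 ± 0.24, edgeR adjusted p 0.00580) and was not called at 30 and 60 days (0.28 and 0.25), though it was with library totals (0.78 and 0.65). Sod2 was lower after 60 days (-0.95) and Sesn3 was higher (1.82). With library totals the splits were 12 and 4 (70.05% and 10.1% of all genes), 9 and 6 (63.1% and 11.9%), and 9 and 3 (57.8% and 12.1%), and each of these named values kept its sign.

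The 10 tested genes of amino acid breakdown linked to KLF15 were all lower after 10 days, 9 were lower and 0 higher after 30 days, and 9 were lower and 0 higher after 60 days, with medians of -0.84, -0.59 and -0.62. Gpt2, an alanine aminotransferase, averaged 132 CPM ± 10.6 (SD, n = 4) in unoperated muscle, 34.0 ± 7.08 after 10 days, 27.6 ± 4.42 after 30 days and 22.1 ± 2.05 after 60 days, with log2 fold changes of -1.96 ± 0.14 (SE) after 10 days and -2.59 ± 0.14 after 60 days. Prodh, which starts proline breakdown, was -1.53 ± 0.23 after 10 days, and Acadsb, which acts on branched-chain acyl-CoA, was -2.06 ± 0.16 after 60 days. With library totals 2 genes were higher and 5 lower after 10 days, 3 and 5 after 30 days, and 0 and 4 after 60 days, against 70.05% and 10.1%, 63.1% and 11.9%, and 57.8% and 12.1% of all genes.

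The mTORC1 arm (17 genes tested) had 4 higher and 6 lower after 10 days, 1 and 12 after 30 days, and 2 and 11 after 60 days, with medians of -0.07, -0.51 and -0.51. Eif4ebp2, the relative of Eif4ebp1 that also binds eIF4E, averaged 65.9 CPM ± 7.07 (SD, n = 4) in unoperated muscle, 39.9 ± 2.66 after 10 days, 11.8 ± 1.28 after 30 days and 14.3 ± 5.48 after 60 days, a log2 fold change of -2.19 ± 0.18 (SE) after 60 days. Tsc1, a subunit of the complex through which Ddit4 acts, was -1.51 ± 0.18 after 60 days, and Ddit4l, the relative of Ddit4, was -2.13 ± 0.39 after 10 days. Eif4a1, the RNA helicase of the cap-binding complex, was higher after 10 days (1.48 ± 0.090) and 60 days (0.30 ± 0.088). Sesn2, a leucine sensor that holds back mTORC1, was higher after 10 days (0.51), and Eif4ebp3, the third relative, after 60 days (0.49). Eif4ebp2 was also lower after 10 days (-0.72), a call lost with library totals (-0.06). Library totals gave splits of 13 and 1 (70.05% and 10.1% of all genes), 6 and 4 (63.1% and 11.9%), and 4 and 4 (57.8% and 12.1%), and Eif4ebp2 and Tsc1 after 60 days were -1.80 and -1.11.

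**Figure D4:**
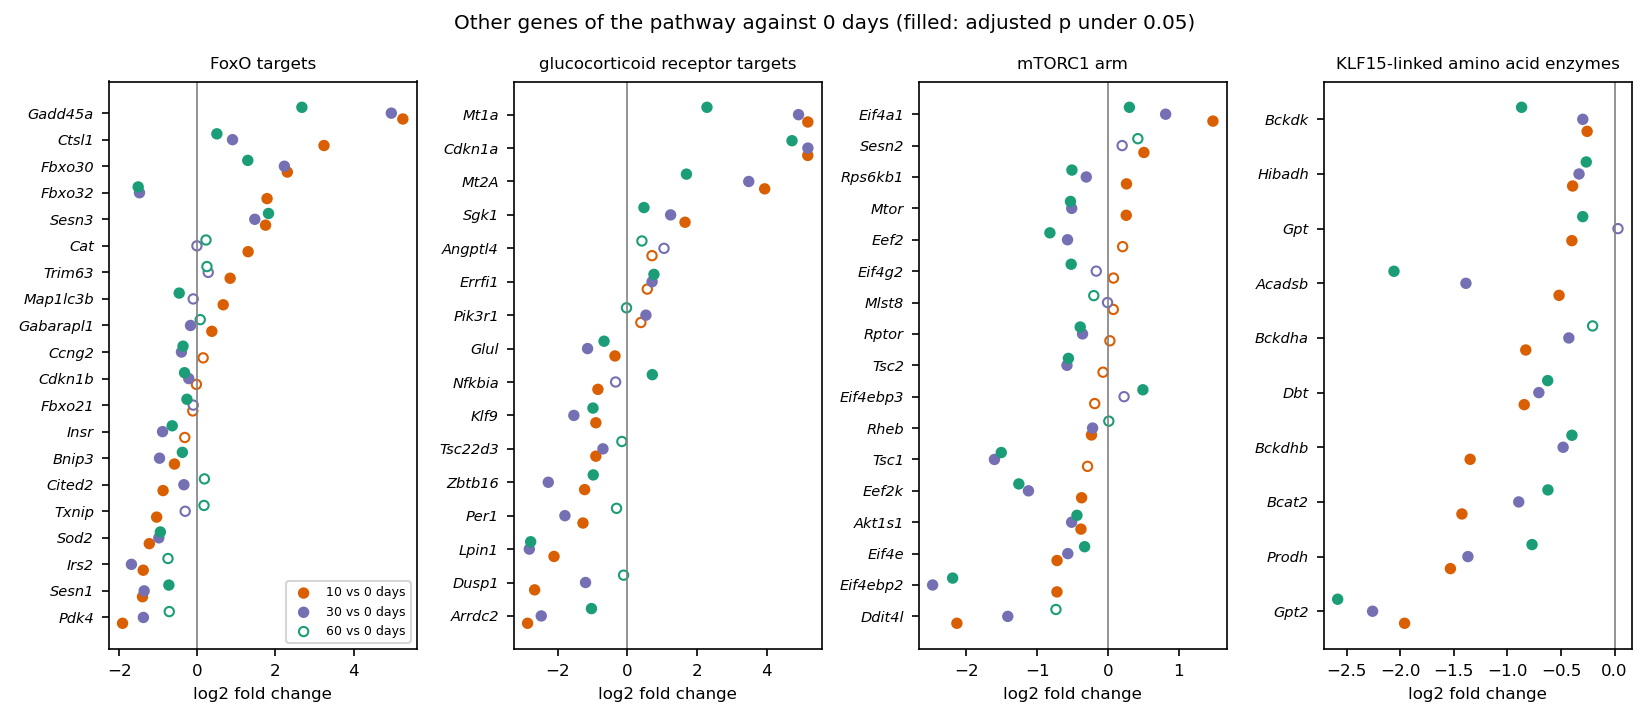
Log2 fold change against 0 days (horizontal axes) of the other genes of 4 lists at 10, 30 and 60 days, ordered by the 10-day value; filled points have an adjusted p under 0.05. The glucocorticoid receptor targets ran from Arrdc2 (-2.86 after 10 days) to Mt1a (5.18), and all 10 KLF15-linked enzymes lay below 0 after 10 days.

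The PI3K-AKT arm upstream of FoxO (17 genes tested) had 9 higher and 5 lower after 10 days, 6 and 7 after 30 days, and 4 and 5 after 60 days. Igf1r, the receptor for insulin-like growth factor, was higher after 10 days (log2 1.70 ± 0.21, SE) and 60 days (0.67 ± 0.21), whereas Irs1, its docking protein, was lower after 10 days (-1.39 ± 0.32). Akt2 fell by 0.98 ± 0.16 after 60 days. Phlpp2, an AKT phosphatase gene, was higher after 10 days (1.43), its relative Phlpp1 was lower after 60 days (-0.70) and Inpp5d, a lipid phosphatase gene of blood cells, was higher (0.61). The kinase subunit gene Pik3cb was lower after 10 days (-0.62) but stood at 0.04 with library totals. The splits with library totals were 15 and 1 (70.05% and 10.1% of all genes), 10 and 0 (63.1% and 11.9%), and 9 and 3 (57.8% and 12.1%). Of 13 other KLF genes 1 was higher and 2 lower after 10 days, 2 and 4 after 30 days, and 1 and 2 after 60 days, and with library totals, beside the same shares of all genes, 6 and 0, 6 and 1, and 4 and 1. Klf5, active in smooth muscle and fat cell formation, was higher at 10 and 60 days (1.79 and 2.22), and Klf2 and Klf4, abundant in endothelium, were lower after 10 days (-1.33 and -1.22), calls lost with library totals (-0.67 and -0.55). Klf13 and Klf16 were lower after 60 days (-1.55 and -0.42), and Klf16 was no longer called with library totals (-0.0025, edgeR adjusted p 0.990). Endothelial markers (4 genes) summed to 197 to 239.8 CPM in unoperated muscle, 105 to 166 after 10 days, 154 to 178 after 30 days and 171 to 264 after 60 days. With TMM factors their sums were low at 10 and 30 days, as were Foxo4, Klf15, Nr3c1, Fkbp5, Eif4ebp1 and Cebpd. At 60 days the sums overlapped those of unoperated muscle, while Foxo4, Nr3c1, Eif4ebp1 and Cebpd were still called lower. The part of endothelium in those results was not tested. Of the 4 markers, 0 were called higher and 4 lower after 10 days, and 0 and 2 after 30 days. With library totals, beside the same shares of all genes, this became 0 and 1, and 1 and 0, with median log2 fold changes of 0.11 and 0.13. Among 4 other C/EBP genes, Cebpa, a factor of mature fat cells, was higher after 10 days (1.02) and 60 days (1.91), and Ddit3 was lower after 10 days (-0.92) and higher after 60 days (0.52). Cebpg was lower at both times (-0.28 and -0.65) but was called higher after 10 days with library totals (0.38).

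For each gene, the 3 genes with the closest course were found by the root mean square difference of centred log2 CPM over the 16 libraries, among 8149 genes. For Fkbp5 the closest was Tsc22d3 (0.24), which encodes the glucocorticoid-induced leucine zipper, followed by Rapgef3 and Mcf2l (0.27 each). For Ddit4 it was Nfkbia (0.27), the inhibitor of NF-kappaB, followed by Jund (0.33) and Hsd3b7 (0.38). Both Tsc22d3 and Nfkbia are in the list of receptor targets, and none of the other closest genes named in this paragraph is. On the same measure the spread over the libraries was 0.54 for Fkbp5 itself, 0.76 for Ddit4 and 0.43 for Cebpb. For Foxo4 the closest were Kif1c (0.16), Slco3a1 (0.17) and Dnajc21 (0.18), against 0.79 for the spread of Foxo4 itself over the libraries. The closest to Foxo1 were Ntn4, Tmed5 and Git1 (0.22 to 0.26), to Foxo3 Glyr1, Icmt and Crkl (0.14 to 0.16), to Klf15 Raly, Mob2 and Ptrf (0.16 each), and to Nr3c1 Msantd4, Serinc4 and Sumo3 (0.087 to 0.094). Eif4ebp1 lay nearest to Gkap1, Cpped1 and Ccdc124 (0.087 to 0.098), Cebpb to Samd4b, Sdc4 and Best3 (0.28 to 0.30) and Cebpd to Tob2, Plekhf1 and Gpr157 (0.29 to 0.30). The spread of the gene itself was 0.52 for Foxo1, 0.48 for Foxo3, 0.37 for Klf15, 0.20 for Nr3c1, 0.33 for Eif4ebp1 and 0.83 for Cebpd. A small distance to a gene of small spread, such as Nr3c1, is therefore not a closer match in proportion.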

How the data were processed

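Expression was analysed in all 16 libraries, prepared, per the labels, by TruSeq mRNA chemistry. The authors deposited 1 table of expected counts: raw fragments per gene symbol and library, per the file headers, with totals that differ between libraries. Per the submitters' processing notes, TopHat2 2.0.9, Bowtie2 2.1.0.0, Cuffdiff 2.1.1 and build rn5 were used; roles, annotation, strandedness and filters are not given in the sources used here. Without strand, reads of overlapping genes cannot be told apart.

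Values were rounded (233 genes have fractional values). filterByExpr kept 11658 genes. All libraries entered 1 edgeR quasi-likelihood model (robust, TMM factors, no covariate), and p-values were adjusted over all genes tested (Benjamini-Hochberg, threshold 0.05). An SE is the log2 fold change divided by the square root of F. Exact permutation tests (two-sided) served for ratios. Within groups, every pair of libraries exceeded counting error (chi-square per gene 13.3 to 102). Groups came from the labelled time. Besides the 10 genes, those named are, per list, the genes with the 2 largest rises and falls among those called at 10 or 60 days, markers, and the 3 genes of closest course. The members and lists were chosen with earlier results of these data known. The alternatives were RLE and upper-quartile factors, library totals, DESeq2, limma-voom, no filter, a mean of at least 1 CPM, the 2 compared groups alone, the replicate block (column suffix), the title letter (L or R) and leaving out each library. The script was tested on simulated data. Models ran in edgeR 4.0.16, DESeq2 1.42.0 and limma 3.58.1 under R 4.3.3.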

Additional observations from a re-analysis of the deposited data

Results flagged for a closer look

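Of 40 groups of 4 libraries (10 genes at 4 times), 3 had 1 library far from its others by Dixon's criterion, which chance meets in about 1 in 20 groups. At 60 days replicate 1 held 14.1 CPM of Foxo1, against 5.85 to 7.07 in the other 3 libraries, and 8.12 CPM of Foxo3, against 4.03 to 4.71. The Foxo1 and Foxo3 flags fell on the same library and are not independent. Over all genes, chi-square per gene was 64.2, 76.7 and 69.6 between replicate 1 and the other 60-day libraries. Between those others it was 13.3, 23.4 and 21.9. At 10 days replicate 4 held 122 CPM of Nr3c1, against 109.7 to 111.

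The change from 0 days differed between times for several genes, tested as the difference between the operated groups themselves (log2, edgeR adjusted p under 0.05). From 10 to 30 days the difference was -1.12 for Foxo1, -0.87 for Foxo3, -1.33 for Foxo4 and -0.23 for Eif4ebp1. From 30 to 60 days it was 0.56 for Foxo4, 0.48 for Klf15, 0.75 for Fkbp5, 1.43 for Ddit4, 0.43 for Eif4ebp1 and 0.88 for Cebpd. From 10 to 60 days it was -0.58 for Foxo1, -0.79 for Foxo3, -0.78 for Foxo4, 0.42 for Klf15, 0.90 for Fkbp5, 1.78 for Ddit4, 0.20 for Eif4ebp1 and 1.22 for Cebpd. With library totals the 10-to-60-day values of Klf15 (0.17) and Eif4ebp1 (-0.048) were not called.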

How the results depend on the processing

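Library totals changed the most: of 60 gene and comparison pairs 30 kept direction and call, 11 lost and 6 gained the call and 13 turned direction. The count of changed genes went from 8 to 5 at 30 days and from 6 to 2 at 60 days against 0 days, while the share of all genes called went from 64.6% to 75.1% and from 59.0% to 69.9%. Values that turned with library totals were Nr3c1 (0.26), Ddit4 (0.0078) and Eif4ebp1 (0.023) at 10 against 0 days, Nr3c1 (0.19) and Ddit4 (0.19) at 30 against 0 days, Foxo1 (0.17), Klf15 (0.096) and Fkbp5 (0.19) at 60 against 0 days, Nr3c1 (-0.076) and Fkbp5 (-0.0086) at 30 against 10 days, Foxo3 (-0.010) and Cebpb (-0.10) at 60 against 30 days, and Eif4ebp1 (-0.048) at 60 against 10 days. Their construction, with no factor for composition, shifts all genes alike. Upper-quartile factors moved the median of all genes by 0.12 and 0.14 at 30 and 60 against 0 days. Klf15 at 30 against 10 days turned with upper-quartile factors (0.015) and Cebpb at 60 against 30 days with the title letter (-0.18); the cause was not tested. Under the other 9 settings 56 to 60 of 60 pairs kept direction and call.

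Leaving out 1 library gave 6 to 7, 8 to 8 and 5 to 8 changed genes at 10, 30 and 60 against 0 days, 3 to 5 at 30 against 10 days, 4 to 6 at 60 against 30 days, 6 to 8 at 60 against 10 days and 9 to 9 over the 4 groups. It turned the direction of values that were not called: Cebpb at 30 against 0 days ran from -0.15 to 0.39, Fkbp5 at 60 against 0 days from -0.35 to 0.0059, Klf15 at 30 against 10 days turned to 0.033 and 0.0087, Foxo3 at 60 against 30 days to -0.20, and Cebpb there ran from -0.17 to 0.37. The ratio differences then ran from 0.18 to 0.47, -0.100 to 0.20 and 0.34 to 0.63 for Foxo1 to Foxo3 at 10, 30 and 60 days, from -0.89 to -0.71, -1.37 to -1.21 and -0.91 to -0.67 for Foxo4 to Foxo3, and from 2.31 to 2.53, 1.37 to 1.96 and 0.86 to 1.01 for Cebpb to Cebpd. The unadjusted exact p stayed at 0.0286 in each of these fits for Cebpb to Cebpd, and for Foxo4 to Foxo3 at 10 and 30 days.

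With the column suffix as a replicate block the counts were 8, 8 and 7 at 10, 30 and 60 against 0 days, and no call of the 60 was lost. Libraries sharing a suffix had correlations of deviations between -0.24 and 0.22 over 24 pairs, with a mean of 0.0013. In all other groups at once, 0 libraries correlated best with their own suffix. Weak or partial pairing could also give that count, so it cannot decide whether the suffix marks pairs. The 60-day libraries were the shallowest, and their lowest count of a described gene was 69 fragments.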

Other observations

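Libraries of a group differed in several of the 10 genes at once. This was noticed after the values were seen and is given with no test. In the unoperated group replicate 2 was the highest of 4 for 6 of the 10 genes (Foxo1, Klf15, Fkbp5, Ddit4, Cebpb and Cebpd), and replicate 4 was the lowest for 4 of them (Foxo1, Ddit4, Cebpb and Cebpd). No share over all genes stands beside these counts, so they cannot be told from a shift of the whole library. Per1 and Nfkbia were picked from the receptor targets after their values were seen, and the order in the other targets is not given. Both were also highest in replicate 2, at 166 and 66.2 CPM, and lowest in replicate 4, at 101 and 32.8 CPM. Nfkbia was found above as the gene of closest course to Ddit4 over these same libraries. Its order is therefore not separate from that of Ddit4 and adds nothing to it. At 60 days replicate 2 was the highest for Fkbp5, Ddit4, Cebpb and Cebpd, and for Per1 (148 CPM) and Nfkbia (99.0 CPM), while replicate 1 was the highest for Foxo1, Foxo3, Foxo4 and Klf15. The labels give no time of day, and no batch, for any library.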
